A study of Mus musculus with 10 samples.

Results

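The genes described here are 34 marker genes of the blood and lymphatic vessels of skeletal muscle, chosen by name: 14 surface, junction, secreted and enzyme genes of endothelial cells, 5 endothelial receptors, 3 endothelial transcription factors, 3 lymphatic genes, 5 pericyte genes, 3 genes of vascular smooth muscle and the ligand Vegfa. All 34 were found among the 15883 genes of the count table, and all 34 passed the filter on low counts that left 13338 genes to test. The libraries hold RNA of a hindlimb muscle, the biceps femoris, from 5 Zfp407 transgenic and 5 wild-type mice. All were C57BL/6J males aged 5 weeks that had eaten normal chow and then fasted for 16 hours. Zfp407 encodes a zinc finger protein, and the title of the series ties its overexpression to glucose homeostasis; the promoter that drives the transgene is not given in the sources used here. Libraries carry their group and a column number but not a mouse, so p-values measure the spread between libraries that the series describes as separate mice.

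Muscle fibres lie in a dense capillary network. Endothelial cells form the capillary wall, pericytes wrap around it, and smooth muscle cells surround the larger vessels. Fibres secrete VEGF-A, which acts on the endothelial receptors encoded by Kdr and Flt1, while the angiopoietin receptor Tek and its partner Tie1 keep vessels stable. Lymphatic endothelium carries its own set of genes, with the transcription factor Prox1 and the receptor Flt4 at its centre. In whole muscle, fewer cells of a type and less RNA per cell cannot be told apart.

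Promoters show the kind of sequence these genes carry. RefSeq (GRCm38.p6) gave 28 promoters of 300 bases, 250 before and 50 after the start, for 21 of the 34 genes. The hexamers AGGAAG and CGGAAG, which hold the core bound by ETS factors such as Erg, were searched on both strands and stood in 11 of the 28 promoters (39.3%), against 15265 of all 32851 promoters of that length (46.5%). CArG boxes, the sites of serum response factor, were searched on both strands as CC, then 6 bases of which at least 5 were A or T, then GG. They stood in 5 of the 28 promoters (17.9%), against 3280 of 32851 (9.98%). A match is a description of the letters, not evidence of binding. The endothelial genes Tie1 (chr4:118489800-118490099, minus strand) and Eng (chr2:32646345-32646644, plus strand) are shown for their ETS hexamers and Acta2 (chr19:34255324-34255623, minus strand) for its paired CArG boxes, with both motifs in capitals. Abcc9 (chr6:142702225-142702524, minus strand) and Kcnj8 (chr6:142571565-142571864, minus strand) are shown because they encode the subunits of one potassium channel and are described together below. Neither motif was found in these windows, so they hold no capitals.
Tie1: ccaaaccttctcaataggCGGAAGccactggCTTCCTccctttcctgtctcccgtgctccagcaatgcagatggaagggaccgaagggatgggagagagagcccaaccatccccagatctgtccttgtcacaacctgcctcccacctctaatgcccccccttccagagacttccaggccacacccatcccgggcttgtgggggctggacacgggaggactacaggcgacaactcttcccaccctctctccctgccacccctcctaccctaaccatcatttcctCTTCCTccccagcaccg
Eng: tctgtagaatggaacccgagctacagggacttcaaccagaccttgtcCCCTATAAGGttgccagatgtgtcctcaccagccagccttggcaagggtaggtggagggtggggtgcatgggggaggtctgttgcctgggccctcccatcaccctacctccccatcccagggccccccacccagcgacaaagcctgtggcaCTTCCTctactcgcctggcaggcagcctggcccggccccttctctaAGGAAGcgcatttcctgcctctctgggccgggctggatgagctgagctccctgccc
Acta2: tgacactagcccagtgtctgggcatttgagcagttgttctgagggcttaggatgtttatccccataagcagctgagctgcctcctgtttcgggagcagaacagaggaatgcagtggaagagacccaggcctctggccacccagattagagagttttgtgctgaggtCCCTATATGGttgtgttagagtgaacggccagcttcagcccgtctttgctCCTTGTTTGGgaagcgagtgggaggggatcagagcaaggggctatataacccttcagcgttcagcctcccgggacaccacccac
Abcc9: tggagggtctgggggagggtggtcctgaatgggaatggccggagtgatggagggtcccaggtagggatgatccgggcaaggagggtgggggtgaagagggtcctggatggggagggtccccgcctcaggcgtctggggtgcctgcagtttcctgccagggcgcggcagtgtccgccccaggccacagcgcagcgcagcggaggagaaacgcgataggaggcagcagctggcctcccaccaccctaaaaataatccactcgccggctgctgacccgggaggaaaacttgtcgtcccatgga
Kcnj8: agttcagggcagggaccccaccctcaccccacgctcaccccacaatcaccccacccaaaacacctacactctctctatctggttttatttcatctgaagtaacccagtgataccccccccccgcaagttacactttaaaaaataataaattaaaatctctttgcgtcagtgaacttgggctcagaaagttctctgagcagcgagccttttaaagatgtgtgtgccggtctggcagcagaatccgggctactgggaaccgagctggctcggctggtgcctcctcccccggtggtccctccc

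Total counts ran from 15162400 to 19047834 per transgenic library and from 13530367 to 17814900 per wild-type library, and the 34 genes took 0.135% to 0.183% of them, with 32 to 8932 counts per gene and library. CPM below means counts scaled to the TMM-adjusted library total, so that libraries of unequal depth can be compared. Zfp407 ran from 317 to 616 CPM in transgenic and from 20.95 to 25.7 CPM in wild-type libraries. Defining genes of fibres were present in every library, with a summed level of 8 skeletal muscle markers of 129217 to 159255 CPM in transgenic and 158191 to 221571 CPM in wild-type libraries. A large share of counts lay in 3 rows, Lars2, Gm15564 and Gm15662: between 9.62% and 17.3% in transgenic libraries and between 14.3% and 33.9% in wild-type libraries. The TMM factors ran from 1.02 to 1.16 and from 0.814 to 1.01 in the same groups. Summed hepatocyte markers, which belong to no muscle cell, ran from 509 to 5920 CPM in transgenic and from 177 to 353 CPM in wild-type libraries, and summed leukocyte markers from 112 to 282 and from 87.3 to 162 CPM in the same groups. In edgeR 9 of 11 hepatocyte markers tested and 1 of 7 leukocyte markers passed, all higher in the transgenic group, against 5.33% of all genes in either direction. The part of either in the vascular values was not tested, except where a value without the libraries concerned is given.

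Transgenic library 3 stood apart from the other libraries of its group. It was the highest of all 10 libraries for 13 of the 34 genes, among them Eng, Aqp1, Vwf, Tie1 and Cspg4, and the lowest for 6, which were Flt1, Erg, Prox1, Rgs5, Abcc9 and Vegfa. The median GC content of the longest transcript was 54.9% in those 13 genes and 48.3% in those 6, against 53.2% over all 34 and 49.4% over 13308 genes. Across genes, the deviation of this library from the other 4 transgenic libraries rose with GC content, with r = 0.635 over the 13308 genes and r = 0.669 over the 34. In the other transgenic libraries that r ran from -0.356 to -0.147 over all genes, and in wild type from -0.0822 to 0.0645. Library 3 is part of the mean that each other transgenic library was set against, so its rise pulls their r down. Genes of one library share its preparation and depth and are not independent. With each library's GC trend taken out, transgenic library 3 was the highest of 10 for 4 genes, Eng, Aqp1, Gpihbp1 and Ly6c1. It was then the lowest for 6, Cldn5, Egfl7, Flt1, Erg, Myh11 and Vegfa, and no longer for Prox1, Rgs5 and Abcc9. This library also differed in markers outside the 34 genes. Summed tendon markers stood at 290 CPM there, against 21.6 to 65.0 CPM in the other transgenic and 39.7 to 180 CPM in wild-type libraries. Further markers of pericytes and smooth muscle summed to 2839 CPM, against 1478 to 1840 CPM and 1597 to 1911 CPM in the same groups. The part of tissue make-up in the values of library 3 was not tested.

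**Figure D1:**
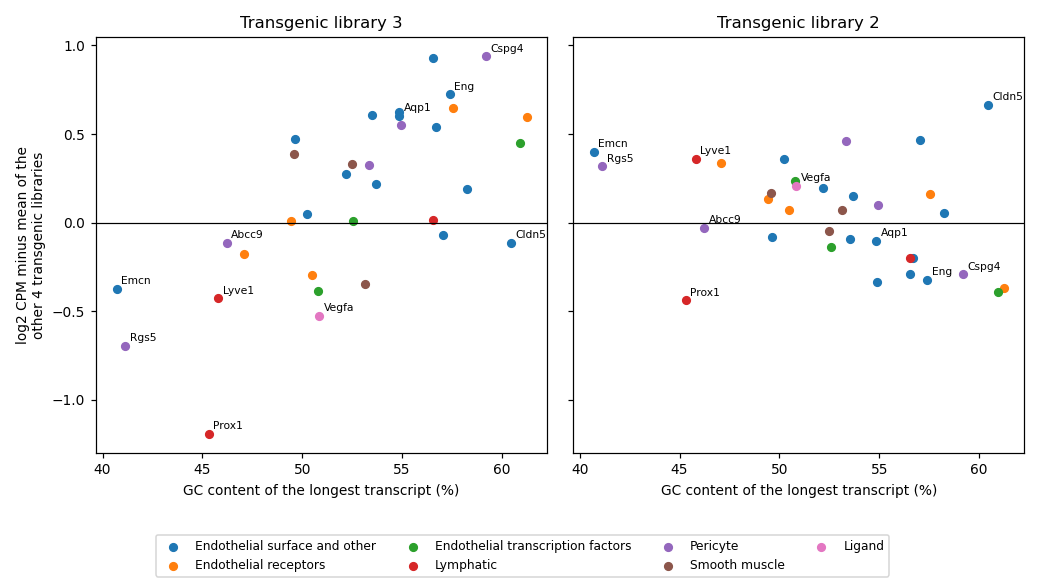
Deviation of each of the 34 genes (log2 CPM minus the mean of the other 4 transgenic libraries, vertical) against the GC content of its longest transcript in percent (horizontal), for transgenic library 3 on the left and transgenic library 2 on the right, coloured by role. In library 3 the points climb with GC content (r = 0.669, n = 34 genes), while in library 2 they slope the other way (r = -0.342). Library 3 is part of the mean that library 2 is set against, so these slopes are not independent.

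None of the 34 vascular genes passed an adjusted p of 0.05 in edgeR's quasi-likelihood test, where 711 of 13338 genes tested (5.33%) did. At an adjusted p of 0.1 the count was 0 as well, against 8.36% of all genes, and at an unadjusted p under 0.05 it was 2 of 34, Abcc9 and Prox1, against 18.1% of all genes. DESeq2 called 1 of the 34, Abcc9, against 7.74% of genes with an adjusted p, and the authors' deposited table called the same 1, against 7.29% of its rows. Libraries of the groups did not overlap for 1 gene, again Abcc9, where 8.04% of all genes tested showed such separation. The median log2 fold change, transgenic over wild type, was -0.02 over the 34 genes and 0.003 over all genes tested, with 15 of the 34 above 0 and 19 below. That split moved with the setting. It was 9 above and 25 below without transgenic library 3, the same without the rows Lars2, Gm15564 and Gm15662, and 22 above and 12 below without transgenic libraries 4 and 5, where the median of the 34 genes was -0.10, -0.05 and 0.05 in that order.

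Log2 fold changes ran from -0.30 for Abcc9 to 0.78 for Prox1. The 95% interval of the fold change lay within 2-fold either way for 32 of the 34 genes, all but Prox1 and Lyve1, and within 1.5-fold for 26. The median SD of log2 CPM within a group was 0.251 over the 34 genes, against 0.235 over the 9745 tested genes at or above their lowest mean level, which was 3.55 CPM. With the GC trend of each library taken out, an alternative chosen after the data had been seen, edgeR called 9.91% of 13308 genes, 605 higher and 714 lower in place of 571 higher and 140 lower, and 1 of the 34, Abcc9. That setting moved the median to -0.08 over all genes and to -0.13 over the 34 genes, with 7 above 0 and 27 below.

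**Figure D2:**
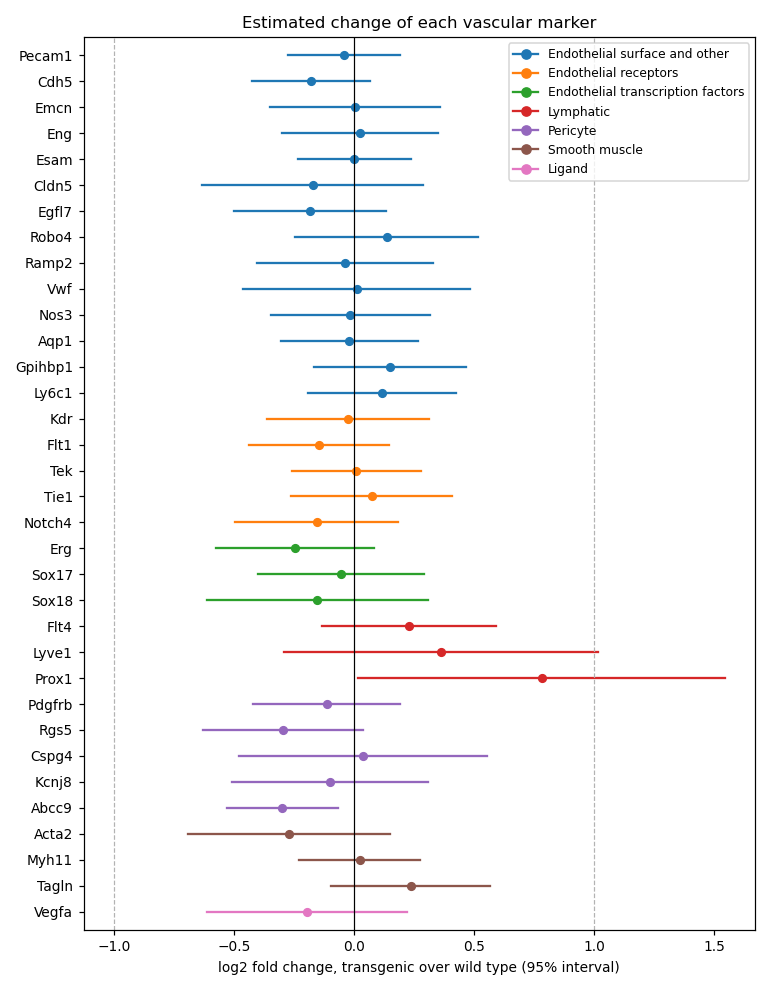
Log2 fold change of each of the 34 genes, transgenic over wild type (horizontal), as a point with its 95% interval, by role (colours); dashed lines mark a 2-fold change either way. Intervals of 32 genes lie between the dashed lines, and those of Prox1 (0.02 to 1.54) and Lyve1 (-0.29 to 1.01) cross the right one.

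Per kilobase of exon, the most abundant of the vascular genes were Rgs5, Aqp1 and Abcc9. Rgs5, a pericyte regulator of G protein signalling, had 78.1 CPM per kb in the transgenic group and 95.8 in wild type. The water channel gene Aqp1 had 79.8 CPM per kb in the transgenic group and 80.9 in wild type, and Abcc9 had 29.6 CPM per kb in the transgenic group and 36.4 in wild type. In the transgenic group Rgs5 and Aqp1 differed by less than the SD of either, 15.3 and 16.9 CPM per kb. Among the other endothelial genes Ly6c1 followed in the transgenic group and the junction gene Cdh5 in wild type. Ly6c1 had 18.6 CPM per kb in the transgenic group and 17.2 in wild type, and Cdh5 had 16.5 CPM per kb in the transgenic group and 18.7 in wild type. At the other end, Flt4 had 0.530 CPM per kb in the transgenic group and 0.451 in wild type and Cspg4 had 0.646 CPM per kb in the transgenic group and 0.627 in wild type. Length was taken from all annotated exons of a gene, which can exceed the transcript that muscle uses.

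**Figure D3:**
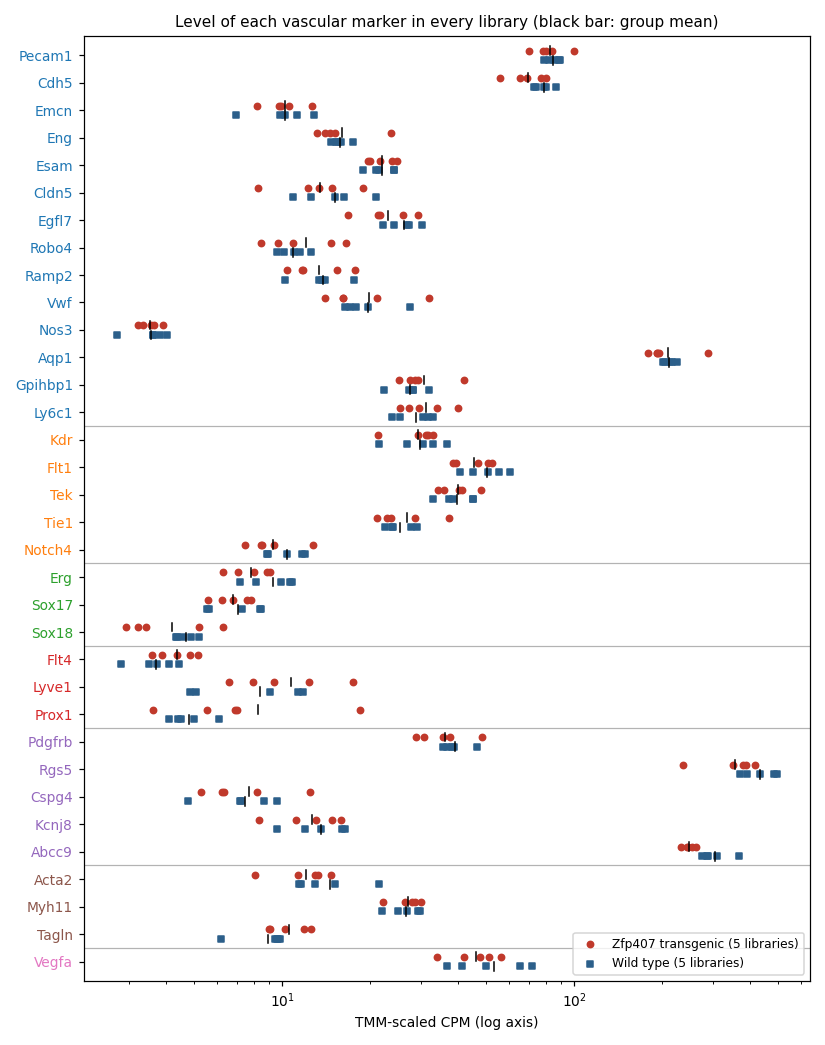
Level of each of the 34 genes in every library as TMM-scaled CPM (horizontal, log axis), with transgenic libraries as circles above wild-type libraries as squares, a black bar at each group mean and grey lines between roles. The groups overlap in 33 genes, and for Abcc9 the transgenic libraries (233 to 263 CPM) lie below the wild-type libraries (274 to 368 CPM).

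Among the general endothelial genes, 7 of 14 had a log2 fold change above 0 and 7 below, and none passed the edgeR test. Their summed level was 557 ± 83.0 CPM in the transgenic group and 570 ± 16.4 CPM in wild type (SD, n = 5 each). The larger spread in the transgenic group came with library 3, at 695 CPM against 486 to 569 CPM in the other transgenic libraries. Pecam1, the adhesion molecule CD31 that is used to count capillaries, had 79.9, 99.98, 84.3, 70.3 and 78.2 CPM in transgenic libraries 1 to 5, against 89.4, 82.2, 85.6, 88.8 and 78.7 CPM in wild-type libraries 1 to 5. The groups overlapped, with transgenic libraries both above and below all wild-type libraries, and the log2 fold change was -0.04 ± 0.11 (SE; adjusted p of 0.891 by edgeR). Its 95% interval, -0.27 to 0.19, is among the narrower ones of the 34 genes.

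Cdh5 encodes VE-cadherin, the adhesion protein of endothelial junctions. It had 69.1, 76.8, 80.3, 55.9 and 65.2 CPM in transgenic libraries 1 to 5, against 80.5, 74.03, 73.1, 86.9 and 78.9 CPM in wild-type libraries 1 to 5. Transgenic libraries 1, 4 and 5 lay below every wild-type library and transgenic libraries 2 and 3 among them. The log2 fold change was -0.18 ± 0.11 (SE; adjusted p of 0.448 by edgeR), and the adjusted p ran from 0.0829 to 0.862 over the alternative settings. Egfl7, a secreted protein of vessel tube formation, had 25.97, 29.3, 21.7, 16.8 and 21.2 CPM in transgenic libraries 1 to 5, against 26.9, 22.2, 27.2, 30.1 and 24.3 CPM in wild-type libraries 1 to 5. The groups overlapped, with the lowest value in transgenic library 4 and the highest in wild-type library 4. Its log2 fold change was -0.18 ± 0.15 (SE; adjusted p of 0.574 by edgeR); 64 exon bases of Egfl7 overlap Agpat2 on the opposite strand, and reads of the pair cannot be told apart without strand.

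Aqp1 had 179, 195, 288, 192 and 193 CPM in transgenic libraries 1 to 5, against 216, 206, 201, 214 and 226 CPM in wild-type libraries 1 to 5. Transgenic library 3 was the highest of all, and the other 4 transgenic libraries lay below every wild-type library. Over all libraries the log2 fold change was -0.02 ± 0.13 (SE; adjusted p of 0.957 by edgeR), and it was -0.16 without transgenic library 3. Aqp1 is also made by red blood cells; summed erythroid markers stood at 100.2 CPM in transgenic library 3, within the 60.6 to 232 CPM of its group, and at 46.1 to 118 CPM in wild type. Nos3, the endothelial nitric oxide synthase, was the least abundant of this set per kilobase. It had 3.34, 3.63, 3.92, 3.54 and 3.22 CPM in transgenic libraries 1 to 5, against 3.62, 2.71, 3.61, 4.03 and 3.83 CPM in wild-type libraries 1 to 5. Wild-type libraries held both the lowest and the highest value, and the log2 fold change was -0.02 ± 0.15 (SE; adjusted p of 0.972 by edgeR).

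The other general endothelial genes overlapped between the groups as well. Eng, a co-receptor of BMP9, stood at 13.1 to 23.5 CPM in transgenic and 14.8 to 17.5 CPM in wild-type libraries, with a log2 fold change of 0.03 ± 0.15 (SE); it shares 61 exon bases with Fpgs on the opposite strand. Vwf, the von Willebrand factor, ran from 14.0 to 31.8 CPM and from 16.4 to 27.5 CPM in the same groups (0.01 ± 0.22, SE). Cldn5, a tight junction protein, ran from 8.27 to 18.9 CPM and from 10.9 to 21.03 CPM (-0.17 ± 0.21, SE). Gpihbp1, which carries lipoprotein lipase to the capillary lumen, ran from 25.2 to 42.1 CPM and from 22.3 to 31.98 CPM (0.15 ± 0.15, SE). Emcn, Esam, Robo4, Ramp2 and Ly6c1, which encode a mucin-like surface protein, a junction protein, a guidance receptor, a co-receptor of adrenomedullin and a Ly6 antigen, had log2 fold changes of 0.003, 0.001, 0.14, -0.04 and 0.12. Leaving out transgenic library 3 gave Eng a log2 fold change of -0.15, Vwf -0.22, Gpihbp1 0.004, Robo4 -0.01 and Ly6c1 0.01. Ly6c1 has a near-identical copy, Ly6c2, at 2.69 ± 0.878 CPM in the transgenic group and 2.23 ± 0.264 CPM in wild type (SD, n = 5 each), and reads may be shared between them.

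The ligand Vegfa and the endothelial receptors did not pass the test either. Vegfa had 47.8, 51.2, 34.05, 41.9 and 56.4 CPM in transgenic libraries 1 to 5, against 71.6, 36.7, 50.0, 65.6 and 41.3 CPM in wild-type libraries 1 to 5. Wild type held the highest values, in libraries 1 and 4, the groups overlapped, and the log2 fold change was -0.20 ± 0.19 (SE; adjusted p of 0.664 by edgeR). Kdr, the main signalling receptor of VEGF-A, had 31.7, 31.2, 29.1, 21.4 and 32.9 CPM in transgenic libraries 1 to 5, against 30.3, 21.5, 33.02, 36.8 and 26.9 CPM in wild-type libraries 1 to 5. Library 4 was the lowest of the transgenic libraries and library 2 of the wild-type libraries, and the log2 fold change was -0.02 ± 0.16 (SE; adjusted p of 0.958 by edgeR). Flt1, a receptor that also acts as a decoy for VEGF-A, had 39.4, 46.99, 38.4, 50.7 and 52.3 CPM in transgenic libraries 1 to 5, against 55.5, 50.8, 40.6, 45.1 and 60.3 CPM in wild-type libraries 1 to 5. The groups overlapped over most of their range, with a log2 fold change of -0.15 ± 0.13 (SE; adjusted p of 0.637 by edgeR).

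Tek, the receptor of the angiopoietins, was the most abundant receptor of the set per kilobase, at 8.49 CPM per kb in the transgenic group and 8.44 in wild type. Its level was 41.5, 47.96, 36.01, 40.3 and 34.3 CPM in transgenic libraries 1 to 5, against 37.4, 45.1, 45.01, 38.5 and 32.8 CPM in wild-type libraries 1 to 5. The groups covered nearly the same range, and the log2 fold change was 0.01 ± 0.13 (SE; adjusted p of 0.979 by edgeR). Tie1, the partner of Tek, ran from 21.1 to 37.5 CPM in transgenic and from 22.5 to 28.95 CPM in wild-type libraries, with a log2 fold change of 0.07 ± 0.15 (SE). Notch4, an endothelial Notch receptor and the least abundant of the receptors per kilobase, had 8.45, 7.45, 12.8, 9.36 and 8.56 CPM in transgenic libraries 1 to 5, against 11.7, 10.4, 8.94, 8.85 and 11.99 CPM in wild-type libraries 1 to 5. Apart from transgenic library 3, the highest of all, transgenic libraries lay in the lower part of the wild-type range or below it, and the log2 fold change was -0.16 ± 0.16 (SE; adjusted p of 0.677 by edgeR). Summed over the 5 receptors the level was 151 ± 7.91 CPM in the transgenic group and 156 ± 2.61 CPM in wild type (SD, n = 5 each).

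All 3 endothelial transcription factors had a log2 fold change below 0, and none passed. Erg, the ETS factor that maintains endothelial identity, had 8.01, 8.89, 6.27, 7.04 and 9.07 CPM in transgenic libraries 1 to 5, against 9.92, 10.8, 8.16, 10.6 and 7.15 CPM in wild-type libraries 1 to 5. Transgenic libraries stayed under 3 of the 5 wild-type libraries and overlapped the other 2, with a log2 fold change of -0.25 ± 0.15 (SE; adjusted p of 0.436 by edgeR). Sox17, an arterial factor, had 5.56, 6.24, 6.77, 7.80 and 7.59 CPM in transgenic libraries 1 to 5, against 8.43, 8.47, 5.55, 7.29 and 5.63 CPM in wild-type libraries 1 to 5. Its groups overlapped and its log2 fold change was -0.05 ± 0.16 (SE; adjusted p of 0.906 by edgeR). With transgenic library 1 left out it was 0.01. Sox18, a factor of blood and lymphatic endothelium, had 6.28, 3.21, 5.19, 2.93 and 3.41 CPM in transgenic libraries 1 to 5, against 4.88, 4.57, 4.33, 4.36 and 5.20 CPM in wild-type libraries 1 to 5. Transgenic library 1 lay above the wild-type range, library 3 near its top and the other 3 below it, with a log2 fold change of -0.15 ± 0.21 (SE; adjusted p of 0.778 by edgeR).

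All 3 lymphatic genes had a log2 fold change above 0, and none passed. Prox1 had the largest one of the 34 genes, at 0.78 ± 0.35 (SE; 95% interval 0.02 to 1.54; adjusted p of 0.265 by edgeR). Its level was 6.90, 5.54, 3.61, 6.995 and 18.5 CPM in transgenic libraries 1 to 5, against 6.06, 4.49, 4.11, 5.01 and 4.40 CPM in wild-type libraries 1 to 5. Transgenic library 5 stood alone at the top, transgenic libraries 1 and 4 lay just above the wild-type range, library 2 lay within it, and library 3 was the lowest of all 10. Once transgenic library 5 was left out, the estimate was 0.27 (adjusted p of 0.577 by edgeR), and without transgenic libraries 4 and 5 it was 0.16. Prox1 is also a transcription factor of hepatocytes and of slow muscle fibres. Transgenic library 5 held the most hepatocyte transcripts, 5920 CPM summed over the markers, and also the most slow fibre transcripts of its group, 862 CPM against 234 to 387 CPM in the other transgenic libraries. Wild-type library 1, with 1552 CPM of slow fibre transcripts, had the highest Prox1 level of the wild-type libraries. That library also held the most hepatocyte transcripts of its group, 353 CPM against 177 to 269 CPM in the other wild-type libraries. Beyond the correlation of Prox1 with the slow myosin gene Myh7 given below, the part of either in the Prox1 level was not tested.

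Lyve1 encodes a hyaluronan receptor of lymphatic endothelium that macrophages and liver sinusoidal endothelium also carry. It had 17.5, 12.4, 7.97, 9.36 and 6.56 CPM in transgenic libraries 1 to 5, against 11.3, 11.8, 9.10, 5.08 and 4.84 CPM in wild-type libraries 1 to 5. Libraries 1 and 2 were the highest of either group, and the groups overlapped. Over all libraries the log2 fold change was 0.36 ± 0.30 (SE; 95% interval -0.29 to 1.01; adjusted p of 0.597 by edgeR), and without transgenic libraries 1 and 2 it was -0.08. The 4 libraries highest in Lyve1 were the 4 highest in summed adipocyte markers, with 567 and 389 CPM in the transgenic pair and 685 and 419 CPM in the wild-type pair, each of libraries 1 and 2, against 84.6 to 191 CPM in the other 6. In transgenic libraries 1 and 2 summed leukocyte markers were also high, at 250 and 282 CPM against 112 to 179 CPM in the other transgenic libraries. The part of adipose tissue or of leukocytes in the Lyve1 level was not tested.

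**Figure D4:**
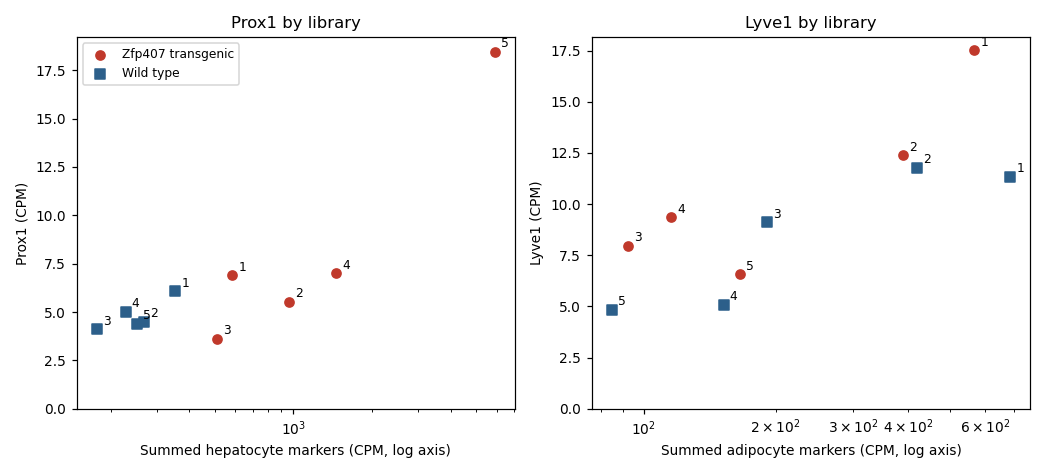
Level of Prox1 against summed hepatocyte markers (left) and of Lyve1 against summed adipocyte markers (right) in each library, in CPM, with log horizontal axes and numbers giving the library within its group. Transgenic library 5 (18.5 CPM of Prox1) stands alone at the right of the first panel, and libraries 1 and 2 of both groups lie at the upper right of the second.

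Flt4, the receptor of VEGF-C and VEGF-D on lymphatic vessels, was the least abundant of the 34 genes per kilobase. It had 4.84, 3.87, 4.37, 3.59 and 5.15 CPM in transgenic libraries 1 to 5, against 4.10, 3.73, 3.50, 4.42 and 2.82 CPM in wild-type libraries 1 to 5. Transgenic libraries 1 and 5 lay above every wild-type library and wild-type libraries 3 and 5 below every transgenic library, while the rest overlapped. The log2 fold change was 0.23 ± 0.17 (SE; adjusted p of 0.535 by edgeR). Across the 10 libraries no pair of the 3 lymphatic genes had a correlation that passed, with r = 0.567 for Flt4 and Prox1 (permutation p = 0.0967; rho = 0.467), r = 0.256 for Flt4 and Lyve1 and r = -0.01 for Lyve1 and Prox1. All 3 values moved when single libraries were left out. Flt4 and Prox1 had r = 0.279 without transgenic library 5, Flt4 and Lyve1 r = -0.175 without wild-type library 5, and Lyve1 and Prox1 r = 0.498 without transgenic library 5.

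Of the 5 pericyte genes, 4 had a log2 fold change below 0, and their summed level was 660 ± 67.4 CPM in the transgenic group and 801 ± 54.4 CPM in wild type (SD, n = 5 each). Abcc9 and Rgs5 made up most of that sum. Abcc9 encodes the sulfonylurea receptor SUR2, the regulatory subunit of an ATP-sensitive potassium channel, and had 247, 244, 233, 263 and 254 CPM in transgenic libraries 1 to 5, against 286, 274, 287, 309 and 368 CPM in wild-type libraries 1 to 5. Every transgenic library lay below every wild-type library, and wild-type library 5 was the highest. Its log2 fold change was -0.30 ± 0.11 (SE; 95% interval -0.53 to -0.07; adjusted p of 0.145 by edgeR), a fold of 0.813 with an interval of 0.693 to 0.954. By edgeR the gene did not pass. DESeq2 gave a log2 fold change of -0.31 (adjusted p = 0.0301), and the authors' deposited table gave -0.30 with a standard error of 0.102 and an adjusted p of 0.0458. With the GC trend of each library taken out, edgeR gave -0.36 (adjusted p = 0.0446), in a setting where the median of all genes was -0.08. Without wild-type library 5 edgeR gave -0.22 (adjusted p = 0.308).

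Abcc9 is no marker of pericytes alone in this tissue, since muscle fibres also make SUR2. Wild-type library 5, the highest in Abcc9, was also the highest in summed skeletal muscle markers, at 221571 CPM, and the transgenic libraries had 129217 to 159255 CPM of them against 158191 to 221571 CPM in wild type. The part of fibre transcripts in the Abcc9 level was not tested. Kcnj8, which encodes the pore subunit Kir6.1 that pairs with SUR2 in mural cells, lies 16.2 kb from Abcc9 on chromosome 6 and on the same strand, with no other gene of the count table between them. Its level was 13.1, 15.97, 14.8, 8.32 and 11.2 CPM in transgenic libraries 1 to 5, against 13.6, 12.03, 16.4, 16.1 and 9.60 CPM in wild-type libraries 1 to 5. The groups overlapped, and the log2 fold change was -0.10 ± 0.19 (SE; adjusted p of 0.845 by edgeR). Per kilobase, Kcnj8 stood at 4.97 CPM per kb in the transgenic group and 5.32 in wild type, well under Abcc9. Across the 10 libraries the neighbours had r = -0.235 (permutation p = 0.515, rho = -0.01). It was 0.177 without wild-type library 5, and 0.238 without transgenic library 4 and wild-type library 5. Without transgenic library 4 alone it was -0.411. With the group means taken out it was -0.602 (permutation p within groups = 0.0557, adjusted p = 0.237).

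Rgs5 had 389, 416, 237, 352 and 381 CPM in transgenic libraries 1 to 5, against 497, 391, 436, 486 and 369.5 CPM in wild-type libraries 1 to 5. Transgenic library 3 was the lowest of all 10 libraries and library 4 also lay below every wild-type library, while transgenic libraries 1, 2 and 5 overlapped wild type. The log2 fold change was -0.30 ± 0.15 (SE; adjusted p of 0.340 by edgeR), and it was -0.18 without transgenic library 3 (adjusted p of 0.340 by edgeR). With the GC trend taken out it was -0.32 (adjusted p of 0.0620 by edgeR), in a setting where the median of all genes was -0.08. Rgs5 has one of the lowest GC contents of the set, 41.1%. Pdgfrb, the PDGF receptor that recruits pericytes to vessels, ran from 28.8 to 48.4 CPM in transgenic and from 35.7 to 46.4 CPM in wild-type libraries (-0.11 ± 0.14, SE; adjusted p of 0.749 by edgeR). Fibroblasts also carry Pdgfrb, and transgenic library 3, the highest in Pdgfrb, had the most fibroblast transcripts of all libraries, 4709 CPM summed over the markers against 2367 to 3933 CPM in the other transgenic and 2479 to 4588 CPM in the wild-type libraries. Not every gene of that list was high there: Col3a1 stood at 1603 CPM and Lum at 25.1 CPM, within the values of the other transgenic libraries. Pdgfrb stood at a log2 fold change of -0.24 once transgenic library 3 was left out; the part of fibroblasts was not tested. Cspg4, the proteoglycan NG2 of pericytes, had 5.28, 6.24, 12.5, 6.33 and 8.24 CPM in transgenic libraries 1 to 5, against 8.66, 4.74, 7.16, 7.22 and 9.60 CPM in wild-type libraries 1 to 5. Transgenic library 3 was again the highest and wild-type library 2 the lowest, with a log2 fold change of 0.04 ± 0.24 (SE; adjusted p of 0.958 by edgeR) that became -0.20 without transgenic library 3.

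The 3 smooth muscle genes had log2 fold changes on both sides of 0, and none passed. Acta2, the smooth muscle actin whose promoter with paired CArG boxes is printed above, had 11.3, 12.99, 14.7, 13.2 and 8.11 CPM in transgenic libraries 1 to 5, against 13.0, 11.4, 15.2, 21.5 and 11.6 CPM in wild-type libraries 1 to 5. Transgenic library 5 was the lowest and wild-type library 4 the highest, the rest overlapped, and the log2 fold change was -0.27 ± 0.19 (SE; adjusted p of 0.523 by edgeR). Myh11, the smooth muscle myosin heavy chain, had 26.4, 27.9, 22.1, 29.9 and 28.5 CPM in transgenic libraries 1 to 5, against 29.7, 26.9, 22.03, 24.99 and 29.3 CPM in wild-type libraries 1 to 5. Its groups covered the same range, with a log2 fold change of 0.02 ± 0.12 (SE; adjusted p of 0.945 by edgeR). Tagln, the actin-binding protein SM22, had 11.9, 10.2, 12.6, 9.07 and 9.01 CPM in transgenic libraries 1 to 5, against 9.61, 9.49, 9.71, 6.18 and 9.82 CPM in wild-type libraries 1 to 5. Transgenic libraries 1, 2 and 3 lay above every wild-type library and libraries 4 and 5 below 4 of the 5, and the log2 fold change was 0.24 ± 0.15 (SE; adjusted p of 0.464 by edgeR); 108 exon bases of Tagln overlap Pcsk7 on the opposite strand. Across the 10 libraries the 3 pairs of these genes had r from -0.488 to -0.165. The sign rested on single libraries in 2 of the 3 pairs: Acta2 and Tagln had r = 0.355 without wild-type library 4, and Myh11 and Tagln r = 0.170 without transgenic library 3.

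Of 20 gene pairs chosen by role, none had a correlation across the 10 libraries that passed an adjusted p of 0.05 by a two-sided permutation test with 100000 resamples. The highest r was that of the pericyte genes Pdgfrb and Cspg4, at 0.743 (rho = 0.648; permutation p = 0.0136, adjusted p = 0.206), with 0.653 without transgenic libraries 3 and 4 and 0.567 with the GC trend taken out (adjusted permutation p = 0.224). Pecam1 and Cdh5 followed with r = 0.726 (rho = 0.697; permutation p = 0.0206, adjusted p = 0.206). Without transgenic libraries 2 and 4 it was 0.709, without transgenic library 4 alone 0.486, and with the GC trend taken out 0.850 (adjusted permutation p = 0.0408). Vegfa and its receptor gene Kdr had r = 0.651 (rho = 0.648; permutation p = 0.0412, adjusted p = 0.275), and r = 0.895 without transgenic library 3 and wild-type library 1 (adjusted exact permutation p = 0.0382). Prox1 and the slow myosin gene Myh7 had r = 0.578 (rho = 0.624; permutation p = 0.0867, adjusted p = 0.363), and 0.359 without transgenic libraries 3 and 5.

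Other genes of the same pathways were taken from lists. Counts called in these and the later lists are read against the 5.33% of all genes tested that edgeR called. None of 28 further genes tested for ligands and other secreted proteins that act on vessels, Lpl among them, passed in edgeR, with a median log2 fold change of 0.03. Jag1, a Notch ligand, had 15.6 ± 0.537 CPM in the transgenic group and 13.0 ± 0.823 CPM in wild type (SD, n = 5 each), without overlap of the groups; its log2 fold change was 0.26 ± 0.09 (SE; adjusted p of 0.128 by edgeR). Figf, the lymphatic growth factor VEGF-D that acts on Flt4, stood at -0.78 ± 0.31 on that scale (SE, adjusted p of 0.190 by edgeR). Its groups overlapped, with 1.96 to 4.23 CPM in transgenic libraries. Wild-type library 2 had 10.9 CPM and the other wild-type libraries 3.45 to 5.83 CPM. Of 20 further receptors none passed, with a median of -0.05; the apelin receptor gene Aplnr stood at -0.75 ± 0.30 and the endothelial phosphatase gene Ptprb at -0.17 ± 0.09 (SE). Of 23 further transcription factors 1 rose, against 5.33% of all genes called in either direction. It was Heyl, a Notch target that acts in mural cells, at 11.1 ± 2.997 CPM in the transgenic group and 6.05 ± 1.54 CPM in wild type (SD, n = 5 each). Its log2 fold change was 0.86 ± 0.22 (SE, adjusted p of 0.0381 by edgeR). Heyl passed in 9 of 19 alternative settings; among the single libraries left out, it kept its call without transgenic library 1 and lost it without each of the other 9 (edgeR adjusted p from 0.0597 to 0.109).

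None of 33 further endothelial markers and none of 22 further mural markers passed in edgeR, with median log2 fold changes of 0.01 and 0.10. She, an endothelial adaptor gene, had -0.31 ± 0.11 and Tspan7, a tetraspanin gene whose groups did not overlap, 0.27 ± 0.11 (SE; edgeR adjusted p = 0.164 and 0.206). Vtn, which encodes vitronectin and is made by pericytes and by hepatocytes, had 67.3 CPM in transgenic library 5, the library with the most hepatocyte transcripts, 16.0 to 23.4 CPM in the other transgenic libraries and 11.6 to 17.3 CPM in wild type (1.14 ± 0.34, SE; adjusted p of 0.0726 by edgeR). Anpep, a surface peptidase of pericytes, had a log2 fold change of 0.32 ± 0.15 (SE).

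Of 5 endothelial activation genes tested 1 rose, against 5.33% of all genes called in either direction. This gene was Vcam1, the leukocyte adhesion molecule that muscle stem cells also carry. It had 15.96, 13.1, 8.10, 11.1 and 8.30 CPM in transgenic libraries 1 to 5, against 5.59, 6.01, 6.27, 6.90 and 4.33 CPM in wild-type libraries 1 to 5. Every transgenic library lay above every wild-type library, and the log2 fold change was 0.96 ± 0.20 (SE; adjusted p of 0.0133 by edgeR). Without transgenic libraries 1 and 2, the highest in Vcam1 and in summed leukocyte markers, the log2 fold change was 0.65 (adjusted p of 0.0710 by edgeR); Vcam1 passed in the other 18 alternative settings.

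Markers of liver sinusoidal endothelium were set beside the hepatocyte transcripts. Of 8 tested 1 rose, Bmp2, a growth factor gene, against 5.33% of all genes called in either direction. Bmp2 had 3.23, 2.93, 4.56, 4.02 and 5.28 CPM in transgenic libraries 1 to 5, against 1.97, 1.36, 2.39, 1.43 and 1.08 CPM in wild-type libraries 1 to 5, without overlap of the groups and with a log2 fold change of 1.26 ± 0.25 (SE; adjusted p of 0.0103 by edgeR). Without transgenic libraries 4 and 5 it was 1.096 (adjusted p of 0.0529 by edgeR), and it passed in the other 18 alternative settings. Stab2, a scavenger receptor gene, had 8.69 ± 2.64 CPM in the transgenic group and 11.7 ± 2.18 CPM in wild type (SD, n = 5 each). Dnase1l3, below the filter, had 45, 53, 5, 13 and 33 counts in transgenic libraries 1 to 5, against 6, 5, 3, 4 and 2 counts in wild-type libraries 1 to 5. Raw counts of the remaining tested genes overlapped between the groups. In transgenic and wild-type libraries in turn, Stab1 ran from 388 to 714 and 310 to 497, and Gpr182 from 21 to 57 and 21 to 26. Fcgr2b ran from 87 to 180 and 49 to 101, and Rspo3 from 8 to 20 and 4 to 18. Cd209b ran from 12 to 218 and 5 to 75, and F8 from 24 to 251 and 30 to 60. Clec4g and Oit3, also on this list, were not in the count table. The median of the 8 genes was 0.37.

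Of 15 genes induced by low oxygen none passed in edgeR, with a median log2 fold change of 0.03. Egln3, an oxygen-sensing prolyl hydroxylase gene, had 39.2, 16.5, 42.3, 29.4 and 40.1 CPM in transgenic libraries 1 to 5, against 19.8, 27.6, 9.77, 5.08 and 6.79 CPM in wild-type libraries 1 to 5. Transgenic libraries were mostly higher, with overlap at transgenic library 2 and wild-type libraries 1 and 2, and the log2 fold change was 1.29 ± 0.41 (SE; adjusted p of 0.0967 by edgeR). Car9, a carbonic anhydrase gene, had a log2 fold change of -0.57 ± 0.22 (SE; adjusted p of 0.177 by edgeR).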

How the data were processed

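Per the submitters' processing notes, GRCm38.p4 was the genome build, reads were handled with Bowtie2 2.2.6, TopHat2 2.1 and SAMtools 1.2, and HTSeq 0.6.1 and DESeq2 1.10 were also used. The sources used here give neither the counting settings nor the strand. The authors deposited raw counts per gene for 5 transgenic and 5 wild-type libraries. In the same table the authors deposited a mean signal over libraries, a log2 fold change with its standard error, a Wald statistic (a score) and p-values.

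Genes past filterByExpr were tested in R 4.3.3 with edgeR 4.0.16 (TMM scaling, glmQLFit, glmQLFTest, transgenic against wild type without covariates), and p-values were adjusted by Benjamini-Hochberg over all 13338. DESeq2 1.42.0, other size factors, no filter, an adjusted p of 0.1 and libraries left out were alternatives; a GC offset per library (loess on transcript GC content, GENCODE M21) was added after the data were seen, and it also takes out any group difference that follows GC content. Standard errors were derived from the F statistics. Log2 CPM used a prior count of 2 (0.5 as an alternative). Correlations were tested by permutation over 20 pairs. The members, lists and pairs were chosen with earlier results of these data known. Values per library were given for the genes most and least abundant per length in each role, those with the smallest p and those called or not overlapping; Pecam1, Kdr and Kcnj8 were added after their values were seen. From other lists up to 3 called genes, or 2 with the smallest p, were named. Markers of other tissues and cell types were given mainly as summed levels, a departure from that rule. Apart from Bmp2, the genes of liver sinusoidal endothelium, among them Stab2 and Dnase1l3, were added after their values were seen. All 20 pairs of libraries within a group differed by more than sampling noise (smallest chi-square over its degrees of freedom 17.5). The edgeR and permutation steps were tested on simulated data.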

Additional observations from a re-analysis of the deposited data

Results flagged for a closer look

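In 5 of the 68 sets of 5 libraries (34 genes in each group), 1 library lay far from the other 4 for the spread of the set; chance gives about 1 in 20. Eng, the endothelial co-receptor of BMP9, had 23.5 CPM in transgenic library 3 and 13.1 to 15.2 CPM in the others of its group. Aqp1, the water channel gene, had 288 CPM in transgenic library 3 and 179 to 195 CPM in the others of its group. Both values belong to the library that deviated by GC content, and both genes remained the highest there with the GC trend taken out. Kdr, the VEGF-A receptor gene, had 21.4 CPM in transgenic library 4 and 29.1 to 32.9 CPM in the other transgenic libraries. Nos3, the nitric oxide synthase gene, had 2.71 CPM in wild-type library 2 and 3.61 to 4.03 CPM in the other wild-type libraries. Tagln, the smooth muscle gene, had 6.18 CPM in wild-type library 4 and 9.49 to 9.82 CPM in the others of its group. The cause of these values was not tested.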

How the results depend on the processing

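The count of vascular genes called by edgeR was 0, and it was also 0 with RLE or upper-quartile size factors, with no filter, at an adjusted p of 0.1, without the rows Lars2, Gm15564 and Gm15662, and without any 1 library or either pair of transgenic libraries. It was 1, Abcc9, under DESeq2, 1 in the authors' deposited table and 1 with the GC trend of each library taken out; the cause was not tested. The count of correlated pairs was 0 and became 1 without the 2 libraries farthest from the median (Vegfa and Kdr) and 1 with the GC trend taken out (Pecam1 and Cdh5); without each single library it ran from 0 to 0. Of 646 recomputed log2 fold changes of the 34 genes, 93 in 19 genes changed sign, all in genes not called and with a log2 fold change of at most 0.36 in size. Calls over all genes, 711 in edgeR, ran from 450 without wild-type library 3 to 1116 without transgenic library 3 when single libraries were left out, and were 1115 at an adjusted p of 0.1, 1230 under DESeq2, 1158 in the authors' deposited table and 1319 with the GC trend taken out. No paired analysis was possible because each mouse has a number of its own in the labels, and nothing ties equal column numbers in the groups to a shared litter or batch. Prox1, Lyve1 and Cspg4 had the largest standard errors of the 34 genes (0.35, 0.30 and 0.24); the part of depth was not tested.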

Other observations

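Wild-type library 5 stood at an end of the wild-type range for several vascular genes. Within wild type, it was the highest for Vwf (27.5 CPM), Pdgfrb (46.4 CPM), Cspg4 (9.60 CPM) and Abcc9 (368 CPM), and the lowest for Emcn (6.93 CPM), Kcnj8 (9.60 CPM) and Rgs5 (369.5 CPM). Across the 34 genes its deviation from the other wild-type libraries had r = 0.477 with transcript GC content, while over 13308 genes r was 0.0645. The cause of these values was not tested.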
